A study of Mus musculus with 7 samples.

Results

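The oxysterol-binding protein family is a set of lipid carriers that share one sterol- and phospholipid-binding fold. Its 10 genes described here, Osbp, Osbp2, Osbpl1a, Osbpl2, Osbpl3, Osbpl5, Osbpl8, Osbpl9, Osbpl10 and Osbpl11, are 10 of the 50686 genes in the tables. They were chosen by symbol, with values of these same libraries already known, so every difference of a member between the ages is given as a description, with no test. The other family genes present in the tables, Osbpl6 and Osbpl7, are reported beside them.

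Microglia rich in lipid droplets, sorted as Bodipy+ cells with antibodies to CD11b and CD45, were compared between 3 Old mice aged 21 to 22 months and 4 Young mice aged 3 to 4 months. All were male C57BL/6 mice that had no drug treatment, and brain tissue was taken 4 days after a 45 min occlusion of the middle cerebral artery. Bodipy is a dye for neutral lipid, and cells were selected with it at both ages, and no Bodipy-negative or sham-operated sample was analysed here. Each library came from the forebrain of 1 mouse by a low-input, non-stranded Smart-seq2 protocol, in which polyadenylated RNA is copied and amplified by PCR.

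Members of this family work where the endoplasmic reticulum lies close to another membrane. In several members one end binds VAP proteins of the endoplasmic reticulum, and in most a PH domain binds phosphoinositides on the opposite membrane. The binding fold carries cholesterol or phosphatidylserine one way and the phosphoinositide PI4P back. Such exchange can set the cholesterol of the Golgi, plasma membrane and late endosomes, the compartments through which engulfed myelin lipid passes. Its part in microglia was not examined here.

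The signature of the binding fold is a run of the residues glutamate, glutamine, valine, serine, histidine, histidine, proline and proline, whose histidines contact PI4P. A search of the translated GENCODE vM21 transcripts (GRCm38) found it unaltered in 10 of 10 members. The coding stretch around it is shown for 6 of the 7 members with a mean above 1 TPM (a level per length of transcript, scaled to one sum in each library), because it is what makes them one family. It is given 5′ to 3′ with the codons of the signature in capitals and 15 bases on either side. Between 9 members compared in 36 pairs, 16 to 22 of these 24 bases were identical.
Osbp (chr19:11984129-11984424, plus strand, across exons 8 and 9 of 14): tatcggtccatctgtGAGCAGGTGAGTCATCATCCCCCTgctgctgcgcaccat
Osbpl11 (chr16:33227205-33227258, plus strand, exon 9 of 13): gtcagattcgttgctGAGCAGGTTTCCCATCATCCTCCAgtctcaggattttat
Osbpl9 (chr4:109066225-109066954, minus strand, across exons 14 and 15 of 21): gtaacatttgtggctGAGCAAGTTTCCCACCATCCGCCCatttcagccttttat
Osbpl8 (chr10:111276538-111277279, plus strand, across exons 14 and 15 of 24): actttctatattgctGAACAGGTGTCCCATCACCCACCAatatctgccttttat
Osbpl2 (chr2:180148439-180148492, plus strand, exon 7 of 14): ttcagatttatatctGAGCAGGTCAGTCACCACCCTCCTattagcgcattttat
Osbpl3 (chr6:50312663-50320057, minus strand, across exons 15 and 16 of 22): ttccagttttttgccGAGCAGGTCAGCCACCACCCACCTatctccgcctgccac

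The members that stood furthest apart between the ages in either direction, among those with a mean of at least 10 CPM, were Osbp and Osbpl11, so the 250 bases before their RefSeq start (GRCm38.p6) are shown, with CCAAT boxes (CCAAT on either strand) and GC boxes (GGGCGG on either strand) in capitals.
Osbp (chr19:11965594-11965843, plus strand): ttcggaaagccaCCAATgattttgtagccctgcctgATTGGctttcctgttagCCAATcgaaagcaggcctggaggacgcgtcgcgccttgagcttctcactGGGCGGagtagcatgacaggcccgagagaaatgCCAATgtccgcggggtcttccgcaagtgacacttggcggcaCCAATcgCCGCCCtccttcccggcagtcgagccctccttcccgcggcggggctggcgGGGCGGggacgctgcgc
Osbpl11 (chr16:33184821-33185070, plus strand): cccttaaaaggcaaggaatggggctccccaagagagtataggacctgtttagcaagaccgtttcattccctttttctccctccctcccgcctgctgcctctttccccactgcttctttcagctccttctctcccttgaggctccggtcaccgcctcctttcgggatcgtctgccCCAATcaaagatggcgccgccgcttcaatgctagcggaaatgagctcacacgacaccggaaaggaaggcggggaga
The Osbp window held 5 CCAAT boxes and 3 GC boxes, and the Osbpl11 window 1 CCAAT box and no GC box. Of 32851 windows of the same length in the table, 33.8% held a CCAAT box, 32.7% a GC box, while 0.213% held 5 or more CCAAT boxes and 8.47% held 3 or more GC boxes. Among the 13 windows of 8 members, 1 of Osbpl9 held 4 CCAAT boxes, and windows of Osbp2 and Osbpl8 held 5 and 4 GC boxes. Neither window held an E-box (CACGTG, in 6.02% of windows) or the sterol regulatory element letters TCACNCCAC (in 1.05%), both searched on either strand with matches of different motifs free to overlap. GC content was 64% in the Osbp window and 56.8% in that of Osbpl11, against a median of 52.4% over all windows.

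Total expected counts were 36574083 to 46133564 in Old and 45379786 to 53002386 in Young libraries. Microglial markers were abundant in every library, with a summed level of 11175.7 to 25295.8 CPM (counts scaled to library size with TMM factors) in Old and 21747.3 to 32406 CPM in Young over 10 of 10 genes. Library 3posI stood apart: it had the lowest microglial sum and 2949.4 CPM over 8 monocyte markers, against 183.3 to 495 CPM in the other 6, and 1081.2 CPM over 6 markers of border-associated macrophages, against 69.7 to 364.1 CPM. Lymphocyte markers summed to 3.84 to 45.5 CPM in Old and 0.26 to 0.588 CPM in Young over 8 of 8 genes. The rRNA biotype took 1.62 to 2.84% of counts in Old and 3.52 to 4.24% in Young, so these last 2 measures moved with age. The monocyte sum overlapped between the ages, but all 8 of its markers had a positive log2 fold change, Old minus Young (median 3.69). Of these, Ly6c2 and Plac8 were higher in every Old library than in every Young one, and the others overlapped. The part of all these measures in the results below was not tested. Over all 7 libraries, marker sums were 73.2 to 196.1 CPM for astrocytes, 41.1 to 105.4 for vessel cells, 44.6 to 69.5 for oligodendrocytes, 1.27 to 140.8 for neutrophils and 2.01 to 5.42 for neurons.

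The plot of CPM by library shows the family at a glance. Osbp was nearly 3 times as abundant in Old as in Young microglia, Osbpl11 and Osbpl2 were lower in every Old library than in every Young one, Osbpl9 and Osbpl1a had nearly equal means, and Osbpl8 and Osbpl3 were higher in Old on average with ages that overlapped. Osbp2, Osbpl5 and Osbpl10 stayed near the floor. In edgeR's fit over 17559 genes, 1 of 10 members (Osbp) had an adjusted p under 0.05, beside 0.803% of all genes, 0.57% higher and 0.233% lower in Old. The same 1 member passed in limma-voom, beside 0.814% of genes, and 2 (Osbp and Osbpl11) in DESeq2, beside 9.07% of genes with an adjusted p. Without adjustment, 4 members (Osbp, Osbpl2, Osbpl10 and Osbpl11) had p under 0.05 in edgeR, beside 18.9% of genes. Every Old library was above every Young one for 1 member (Osbp), beside 8.67% of genes, and below for 3 (Osbpl2, Osbpl10 and Osbpl11), beside 9.07%. Nothing is read from these counts, since this contrast was known when the genes were chosen. Osbpl10 passed the count filter through Young libraries only, so a gene with its pattern had to be higher in Young to be counted. The median log2 fold change was 0.00 over the members and -0.01 over all genes tested.

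**Figure D1:**
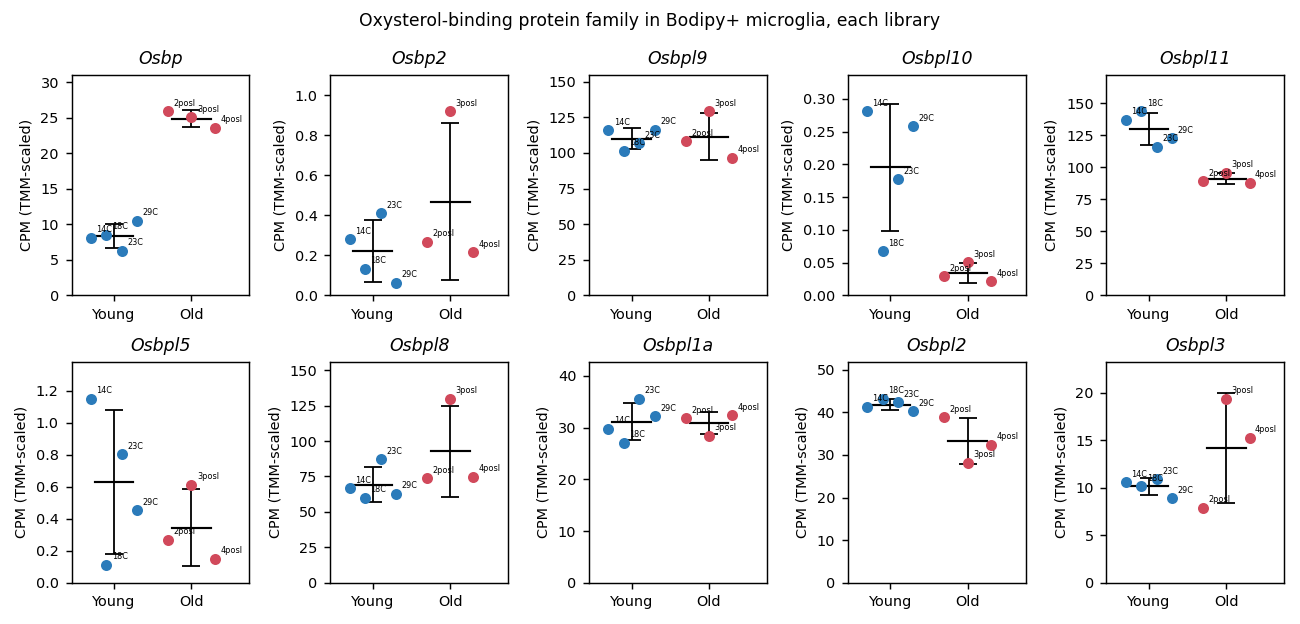
Level of each of the 10 members in TMM-scaled CPM, by age; each point is 1 library, labelled with its animal code, the short line is the mean and the bar 1 SD (n = 4 Young, n = 3 Old). The 3 Old libraries of Osbp lie at 23.6 to 25.9 CPM and the 4 Young ones at 6.3 to 10.5 CPM.

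Osbp, the founding member, moves cholesterol from the endoplasmic reticulum to the trans-Golgi in exchange for PI4P. Its gene lies at chr19:11965941-11994112 on the plus strand. Osbp had 8.14, 8.55, 6.3 and 10.5 CPM in Young 14C, 18C, 23C and 29C, and 25.9, 25.1 and 23.6 CPM in Old 2posI, 3posI and 4posI. The ages did not overlap, and the lowest Old library lay above the highest Young one by more than the whole Young range. The fitted log2 fold change was 1.57 (SE 0.18), or 2.97-fold. Reads behind it numbered 321 to 486 in Young and 868 to 1094 in Old, all whole counts within 0.001, and the tables hold 1 transcript for the gene, so its effective length (the number of positions at which a fragment can start) was equal in all libraries. In these bulk libraries, a change in the share of cells that express a gene and a change in RNA per cell cannot be told apart. In 3posI, the library with the highest monocyte and border-associated macrophage markers, Osbp lay between the other Old libraries. Lymphocyte markers summed to 45.5, 10.9 and 3.84 CPM in Old 2posI, 3posI and 4posI, in the same order as Osbp in CPM. The rRNA biotype took 1.62, 2.43 and 2.84% there, in the reverse order. In TPM, Osbp had 6.99, 7.03 and 7.44 in these libraries, the reverse of its order in CPM, so neither match holds in both units. Among the Young libraries neither measure followed the order of Osbp, and a link was not tested. The log2 fold change of Osbp was 1.46 to 1.70 with 1 library left out at a time and 1.57 without 3posI. Osbp passed the threshold in 3 of these 7 fits and in none of those without 14C, 18C, 29C or 2posI, in which 1 or 2 genes of all those tested passed.

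Osbp2, the closest relative of Osbp, was scarce. Young 14C, 18C, 23C and 29C held 13, 6, 21 and 3 counts, and Old 2posI, 3posI and 4posI held 9, 36 and 10. The highest library was 3posI and the ages overlapped. The log2 fold change of 1.05 (SE 0.79) came down to 0.11 (SE 0.89) without 3posI. Summed over libraries, Osbp2 had 55 counts in Old and 43 in Young, a ratio per total count of 2.01 (exact 95% counting interval 1.32 to 3.07). PCR copies are counted as reads here, so this interval and those below cover counting error only.

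Osbpl9, Osbpl10 and Osbpl11 encode ORP9, ORP10 and ORP11, which pair with each other: ORP9 reaches the VAP proteins and carries PI4P and phosphatidylserine between the endoplasmic reticulum and the Golgi, and ORP10 and ORP11 bind to it. Osbpl9 (chr4:109061145-109202272, minus strand) had 115.8, 101.5, 106.6 and 116.2 CPM in Young 14C, 18C, 23C and 29C, and 108, 129.1 and 96.7 CPM in Old 2posI, 3posI and 4posI. The ages overlapped fully, with a log2 fold change of 0.02 (SE 0.13). Its counts were fractional in 7 of 7 libraries, and 633 of its 7006 exonic bases are shared with Nrd1 on the opposite strand, so in non-stranded libraries some of its reads may belong to Nrd1.

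Osbpl11 (chr16:33185071-33243312, plus strand), whose product sits at the Golgi and late endosomes, had 137, 143.6, 116.1 and 122.6 CPM in Young 14C, 18C, 23C and 29C. In Old 2posI, 3posI and 4posI it had 88.9, 95.8 and 88 CPM. All Old libraries were below all Young ones, with means of 90.9 ± 4.28 (SD, n = 3) and 129.8 ± 12.7 (SD, n = 4) CPM. The log2 fold change was -0.51 (SE 0.12), and it stayed between -0.56 and -0.46 with any 1 library left out. Osbpl11 too has 1 transcript and whole counts in the tables, with 2982 to 4076 reads in Old and 5700 to 6418 in Young.

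Because ORP9 and ORP11 pair, the ratio of their transcripts per length was taken in each library. Osbpl11 TPM divided by Osbpl9 TPM was 0.674, 0.835, 0.632 and 0.625 in Young 14C, 18C, 23C and 29C, and 0.423, 0.398 and 0.487 in Old 2posI, 3posI and 4posI. Every Old library had less Osbpl11 per Osbpl9 than every Young one. The ratio of Osbpl11 to Osbp TPM differed more, at 11.9 to 18.7 in Young and 3.48 to 3.87 in Old, which follows from the values above.

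Osbpl10, the third gene of this group, was almost silent. It had 13, 3, 9 and 12 counts in Young 14C, 18C, 23C and 29C and 1, 2 and 1 in Old 2posI, 3posI and 4posI. It passed the filter (above 10 counts in at least 1 library) through 2 Young libraries and no Old one, so a gene with this pattern had to be higher in Young to be tested. With 4 counts in Old and 37 in Young, the ratio per total count was 0.17 (exact 95% counting interval 0.044 to 0.473). The fitted log2 fold change was -2.43 (SE 0.91) on counts, -0.88 on log2(TPM + 0.1) and -0.15 on log2(TPM + 1).

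Osbpl5 and Osbpl8 encode ORP5 and ORP8, tail-anchored proteins of the endoplasmic reticulum that bring phosphatidylserine to the plasma membrane. Of the pair, microglia expressed Osbpl8 (chr10:111164752-111297249, plus strand), at 66.8, 60, 87.3 and 62.7 CPM in Young 14C, 18C, 23C and 29C. In Old 2posI, 3posI and 4posI it had 73.9, 129.9 and 74.7 CPM. One Old library, 3posI, was far above the rest, and Young 23C lay above the other Old ones. The log2 fold change of 0.42 (SE 0.23) was 0.10 (SE 0.17) without 3posI, the library with the highest monocyte and border-associated macrophage markers. Osbpl5 had 53, 5, 41 and 21 counts in the Young libraries and 9, 24 and 7 in the Old ones, with ages that overlapped and a ratio per total count of 0.524 (exact 95% counting interval 0.357 to 0.755). Its 4 Young libraries differed more among themselves (CV 71%) than the counting interval covers.

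Osbpl1a encodes ORP1, whose long form senses cholesterol on late endosomes and governs their transport with Rab7. It had 29.8, 27.1, 35.6 and 32.2 CPM in Young 14C, 18C, 23C and 29C, and 31.8, 28.4 and 32.4 CPM in Old 2posI, 3posI and 4posI. The ages overlapped and the log2 fold change was -0.01 (SE 0.13). Its TPM, in which counts are divided by the effective length described below, was 15.9 to 19.9 in Young and 12.4 to 14.8 in Old, with no overlap. In GENCODE vM21, 855 of its 7787 exonic bases are shared with an antisense transcript, AC102055.1, and reads of both cannot be told apart without strand.

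Osbpl2 (chr2:180119306-180162680, plus strand) encodes ORP2, a short member without a PH domain that delivers cholesterol to the plasma membrane. It had 41.3, 43.2, 42.4 and 40.3 CPM in Young 14C, 18C, 23C and 29C, and 38.9, 28.2 and 32.4 CPM in Old 2posI, 3posI and 4posI. The Old libraries were all lower, 2posI by little, and the log2 fold change was -0.34 (SE 0.13), or -0.23 without 3posI. The Young libraries of Osbpl2 were the most alike of the members (CV 3.07%), and the Old ones had a CV of 16.3%.

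Osbpl3 (chr6:50293330-50456201, minus strand) encodes ORP3, which acts at contacts with the plasma membrane and on R-Ras and cell adhesion. It had 10.6, 10.2, 10.9 and 8.9 CPM in Young 14C, 18C, 23C and 29C, and 7.93, 19.4 and 15.3 CPM in Old 2posI, 3posI and 4posI. The Old libraries lay on both sides of the Young ones, 2posI below all 4 and the other two above. The log2 fold change of 0.48 (SE 0.27) was 0.20 (SE 0.25) without 3posI.

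**Figure D2:**
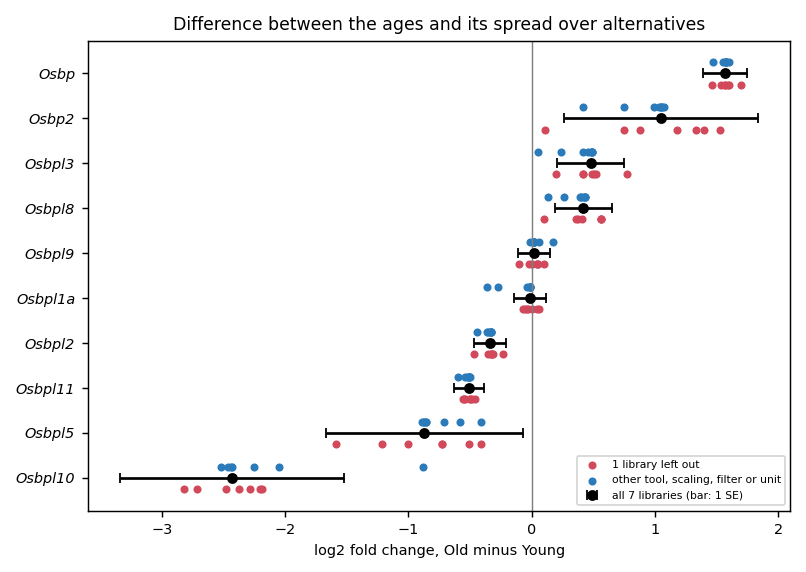
Log2 fold change of each member, Old minus Young: black points are edgeR's fit on 7 libraries with 1 SE, red points leave out 1 library each, and blue points use another tool, scaling, filter or unit. Osbp stays at 1.46 to 1.70 and Osbpl11 at -0.60 to -0.46 over all points, while Osbp2, Osbpl5 and Osbpl10 scatter widely.

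Per length of transcript, the order of the members in Young was Osbpl9 (58.6 ± 3.47 TPM, SD, n = 4), Osbpl11 (40.4 ± 4.98), Osbpl2 (21.6 ± 1.36), Osbpl8 (17.4 ± 5.27), Osbpl1a (17.1 ± 1.89), Osbpl3 (5.59 ± 1.17) and Osbp (2.55 ± 0.447), followed by 3 members with means under 1 TPM. Osbpl2, Osbpl8 and Osbpl1a had ranges that overlapped from each to the next, so their order is not set by these libraries. In Old (n = 3) the order was Osbpl9 (61.2 ± 6.26 TPM), Osbpl11 (26.5 ± 1.95), Osbpl8 (19.2 ± 6.6), Osbpl2 (16 ± 2.42), Osbpl1a (13.3 ± 1.36), Osbp (7.15 ± 0.249) and Osbpl3 (6.16 ± 2.67). Here Osbpl9 kept a range apart from Osbpl11, the ranges from Osbpl11 to Osbpl1a overlapped from each to the next, and so did those of Osbp and Osbpl3. Osbp lay below Osbpl3 in 4 of 4 Young libraries and above it in 2 of 3 Old ones. Among the scarce members, Osbpl5, Osbp2 and Osbpl10 had 0.405, 0.155 and 0.143 TPM in Young and 0.25, 0.227 and 0.0267 TPM in Old, with overlapping ranges except between Osbp2 and Osbpl10 in Old.

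The summed TPM of the 10 members was 169, 165.5, 171.1 and 149.8 in Young 14C, 18C, 23C and 29C, and 135.9, 163.8 and 150.3 in Old 2posI, 3posI and 4posI, with ages that overlapped. The composition moved within this sum. Osbp made up 1.57 ± 0.361% of it in Young (SD, n = 4) and 4.79 ± 0.447% in Old (SD, n = 3). Osbpl11 made up 24.7 ± 2.72% in Young and 17.7 ± 1.04% in Old, again without overlap. The share of Osbpl9 was 33.5 to 38.3% in Young libraries against 38.3 to 42.4% in Old ones. TPM differences of all genes had a median of -0.13 on the log2(TPM + 0.1) scale, so a member at that value had moved with the bulk of genes. On this scale Osbp differed by 1.47 (1.21 with a pseudocount of 1), Osbpl11 by -0.60, Osbpl2 by -0.44, Osbpl1a by -0.36, Osbpl8 by 0.13, Osbpl9 by 0.06 and Osbpl3 by 0.05.

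**Figure D3:**
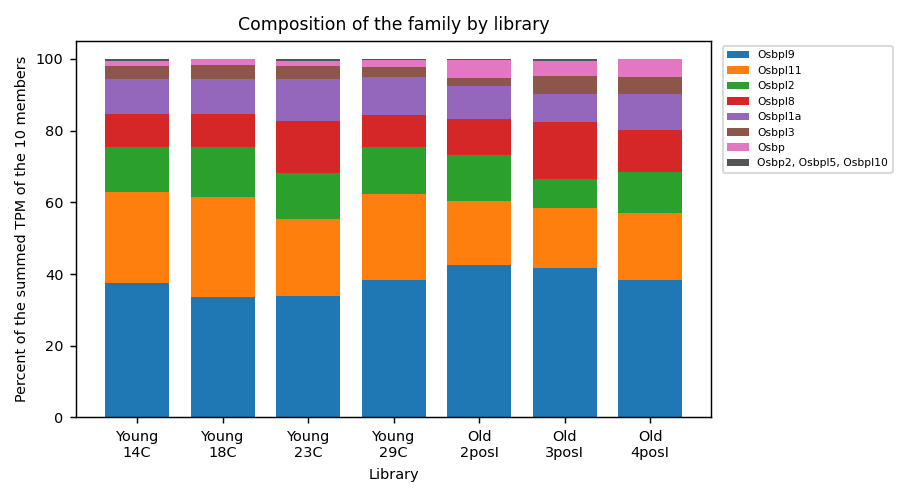
Percent of the summed TPM of the 10 members taken by each one, in each of the 7 libraries. Osbp takes 1.15 to 2.02% in Young and 4.29 to 5.14% in Old, and Osbpl11 takes 21.4 to 27.9% in Young and 16.6 to 18.7% in Old.

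RSEM's effective length of a gene averages over its transcripts by their abundance, so it moves with the mix of isoforms. It varied by more than 1% of its mean between libraries for 8 members. Every Old library was above every Young one for 2 members, Osbpl1a and Osbpl3, beside 13.5% of the 11107 tested genes with such variation, and below for 1, Osbpl9, beside 6.39%. These shares belong to the known contrast too, and nothing is read from the counts. Over the same genes the median difference was 0.014 on the log2 scale, and 58.2% were longer in Old.

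For Osbpl1a the effective length was 2522, 2460, 2520 and 2594 bases in Young 14C, 18C, 23C and 29C, and 3134, 2867 and 3109 bases in Old 2posI, 3posI and 4posI. The Old mean was 20.3% longer. The tables list 18 transcripts of the gene, whose coding ones are 363 to 3956 bases long in GENCODE vM21, and give no value for each. In RSEM's estimate the weight in Old therefore lay on longer transcripts, and which ones cannot be read from gene-level values. Whether reads of the antisense transcript AC102055.1 entered this estimate was not tested. With the effective length as an offset in edgeR, the log2 fold change of Osbpl1a was -0.27 instead of -0.01.

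For Osbpl9 the order was the opposite, with 2545, 2638, 2596 and 2649 bases in Young and 2297, 2395 and 2395 bases in Old, with means of 2607 and 2362 bases over 19 listed transcripts. The offset gave a log2 fold change of 0.17 instead of 0.02. Osbpl3 had 2540, 2306, 2467 and 3011 bases in Young 14C, 18C, 23C and 29C, and 3102, 3018 and 3038 in Old 2posI, 3posI and 4posI. Young 29C was within 10 bases of the lowest Old library, so the separation was narrow. Osbpl8 overlapped at 4905 to 6159 bases in Young and 5970 to 6737 in Old, and Osbpl2 hardly moved, at 2655 to 2734 and 2698 to 2711 bases. Effective lengths of Osbp2, Osbpl5 and Osbpl10 rest on few reads and spread widely, for example from 1418 to 4048 bases for Osbp2 in Young.

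**Figure D4:**
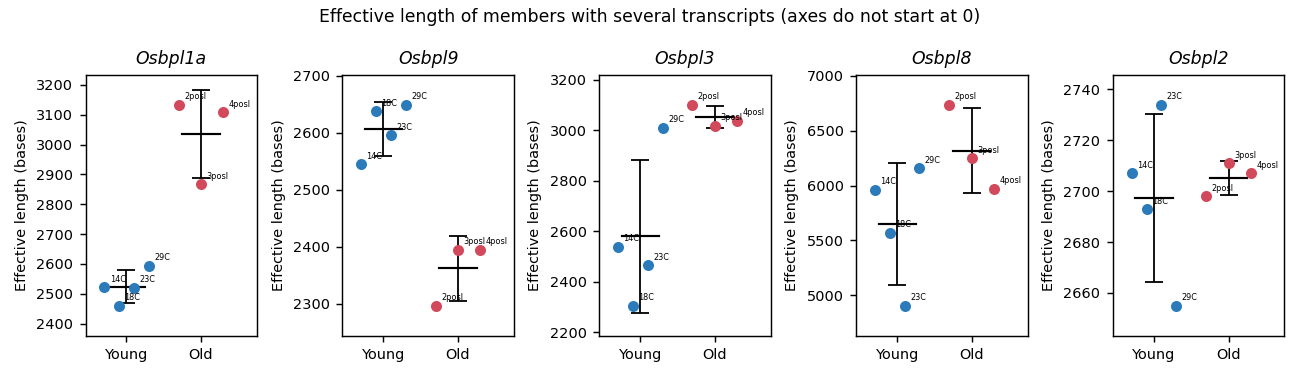
Effective length in bases of the 5 members above 1 TPM with several transcripts, by age; points are libraries, the short line is the mean and the bar 1 SD, and the axes do not start at 0. Osbpl1a lies at 2460 to 2594 bases in Young and 2867 to 3134 in Old, while Osbpl9 goes from 2545 to 2649 down to 2297 to 2395.

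The other family genes were not called. Osbpl7, a close relative of Osbpl3, had 14.8 ± 0.636 CPM in Young (SD, n = 4) and 12.2 ± 0.687 in Old (SD, n = 3), and the ages did not overlap (log2 fold change -0.28, SE 0.13, edgeR adjusted p = 0.292). Its counts were fractional in 5 of 7 libraries, and it shares 321 exonic bases with Gm11574 on the opposite strand. Osbpl6 was as scarce as Osbpl10, with 41 counts in Young and 11 in Old. It passed the count filter through 1 Young library and no Old one, so a gene with this pattern too had to be higher in Young to be tested.

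Over all tested genes with a mean of at least 10 CPM (8145 compared), the genes whose log2 CPM followed Osbp most closely across the 7 libraries were Lars2 (r = 0.997), Usp7 (r = 0.995) and Hipk2 (r = 0.994). Lars2, a mitochondrial leucyl-tRNA synthetase, had 657.7 ± 94 CPM in Young (SD, n = 4) and 1546.6 ± 52 in Old (SD, n = 3). Usp7, a deubiquitinase, had 22.9 ± 2.86 and 46.4 ± 2.62 CPM, and Hipk2, a nuclear kinase, 29.4 ± 2.64 and 45.2 ± 0.401 CPM. Those closest to Osbpl11 were Guf1 (r = 0.99), Cux1 (r = 0.988) and Kdm4b (r = 0.986). The 7 libraries fall into 2 ages, so any gene with the same step between ages correlates in this way: 290 genes had r above 0.9 with Osbp and 184 with Osbpl11.

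Of the genes that work with the family, 66 of 68 on 7 lists were tested (Mospd1 and Mospd2 are on the X chromosome, which was left out). In edgeR's fit, 2 of 66 fell in Old microglia, beside 0.233% of all genes lower, and 0 rose, beside 0.57% higher. The 0 depends on the method: with the effective-length offset 2 genes were called higher (Pi4ka at 0.87 and Vps13d at 1.30 on the log2 scale) and 4 lower, and DESeq2 called 6 higher (Pi4ka, Pi4k2a, Ttc7b, Vps13d, Npc1 and Npc2) and 7 lower. Without adjustment, 17 of 66 had p under 0.05, beside 18.9% of all genes. The lists, like the members, were chosen with earlier results of these data known. Nothing is read from these counts, and the p-values of listed genes are given as a description. The first that fell was Pi4kb, which encodes a Golgi kinase that makes PI4P. Pi4kb had 22 ± 3.37 CPM in Young (SD, n = 4) and 11 ± 0.695 in Old (SD, n = 3), which is -1.01 on the log2 scale (SE 0.16, edgeR adjusted p = 0.0387). The second was C2cd2l, which encodes the phosphatidylinositol carrier TMEM24 of contacts with the plasma membrane, with 32 ± 2.82 CPM in Young and 17.1 ± 2.46 in Old, which is -0.90 on the log2 scale (SE 0.14, edgeR adjusted p = 0.0379). For both, every Old library was below every Young one. Both calls are close to the threshold: Pi4kb lost its call in each of the 7 fits that left out 1 library and C2cd2l in 6 of them, with log2 fold changes of -1.11 to -0.94 and -1.02 to -0.81.

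Of 12 genes for PI4P kinases, their adaptors and the PI4P phosphatase, 1 (Pi4kb) fell and 6 of 12 had a positive fold change, with a list median of 0.04. The kinase genes differed in sign: Pi4ka (log2 fold change 0.48, SE 0.14, adjusted p = 0.129) and Pi4k2a (0.69, SE 0.21, adjusted p = 0.142) had every Old library above every Young one without passing the threshold in edgeR, and are named here after their values were seen. Of 24 other lipid transfer proteins at contact sites, 1 (C2cd2l) fell and 14 had a positive fold change, with a median of 0.12. In the lists with no call, the gene with the smallest p is given. Among the 3 tested VAP-type anchors it was Mospd3 (log2 fold change 0.33, SE 0.16, adjusted p = 0.314). Among 5 genes of phosphatidylserine synthesis and scrambling it was Ptdss2, a phosphatidylserine synthase (-0.33, SE 0.14, adjusted p = 0.259). Dctn1, the dynactin subunit that links the late endosome to its motor, was first among 8 partners of Osbpl1a (-0.71, SE 0.16, adjusted p = 0.0811). Scap, the sterol sensor that escorts SREBP, was first among 12 genes of oxysterol synthesis and sensing (-0.63, SE 0.14, adjusted p = 0.0803). The median over all genes tested was -0.01, and the medians of these 4 lists were 0.14, -0.17, -0.12 and -0.13.

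**Figure D5:**
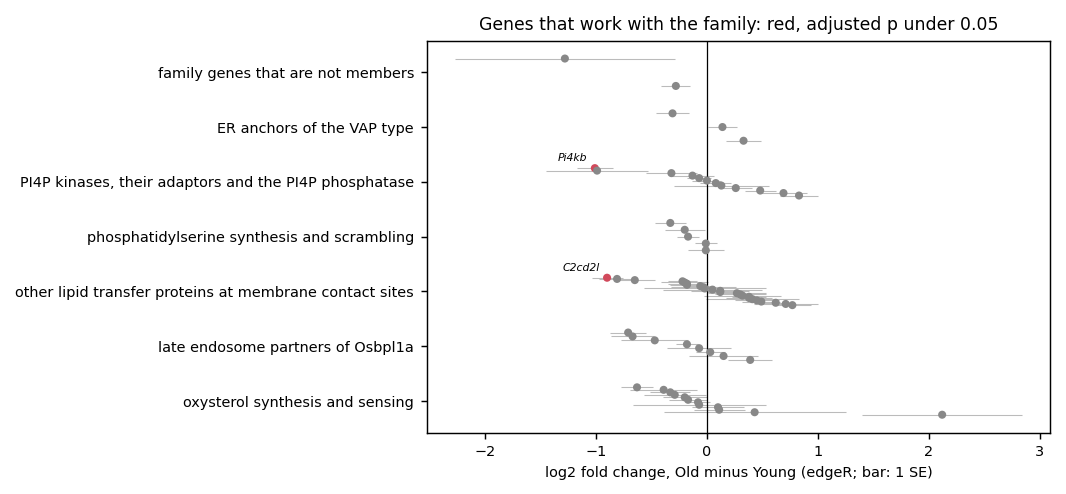
Log2 fold change, Old minus Young, with 1 SE for each of 66 tested genes, by list. These are genes that work with the family, with Osbpl6 and Osbpl7 as a list of their own. Red points have an adjusted p under 0.05. Only Pi4kb at -1.01 and C2cd2l at -0.90 are red.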

How the data were processed

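Gene tables of 7 libraries (4 Young, 3 Old) were used, with groups taken from the sample titles and the sex, day and sort from the methods. The authors trimmed the reads, aligned them with STAR to GRCm38 and counted GENCODE m15 genes by RSEM. The submitters' processing notes also name FastQC 0.11.5, while for RSEM and STAR a version was not given in the sources used here. They deposited expected counts, which are not normalized, TPM and FPKM values scaled within each library, and a length and an effective length of each gene. FPKM was not used. The expected counts, rounded to integers, of the 17559 genes outside X, Y and the mitochondrial genome that exceeded 10 in 1 or more libraries were fitted in R 4.3.3 with edgeR 4.0.16 (TMM factors, quasi-likelihood test, age as the only term, Benjamini-Hochberg adjustment, threshold 0.05). CPM on the log2 scale had a prior count of 1, and log2 TPM a pseudocount of 0.1. The paper's limma-voom (limma 3.58.1) and DESeq2 1.42.0 were alternatives, with a TPM pseudocount of 1, RLE factors, an effective-length offset, 2 other filters, X, Y and M kept, and each library left out. Each library is 1 mouse. No batch or pairing is named in the labels. On simulated counts of this comparison (17556 genes, 200 changed), edgeR recovered 78% of the genes changed 4-fold and 25% of those changed 2-fold, with 3.74% false calls, and DESeq2 had 27.6% false calls. Positions came from GENCODE vM21, a later release than the authors'. Promoters came from RefSeq, in which 8 members had an entry.

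The members and lists were chosen with earlier results of these data known. Genes named were the members, Osbpl6 and Osbpl7, the genes past the threshold in each list of partners or else the one with the smallest p, and, for the 2 members of at least 10 CPM with the largest difference, the 3 genes with the highest Pearson r. Marker lists of microglia, monocytes, border-associated macrophages, neutrophils, lymphocytes, astrocytes, oligodendrocytes, neurons and vessel cells were summed. An outlier check used Dixon's critical value for 4 libraries (0.829).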

Additional observations from a re-analysis of the deposited data

Results flagged for a closer look

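Among 28 sets of 4 Young values (CPM, TPM or effective length of a member), 2 had 1 library far from the other 3 by Dixon's ratio of gap to range, where chance gives about 1.4; sets of 3 Old libraries were not examined in this way. Osbpl1a had 19.9 TPM in Young 23C and 15.9 to 16.5 TPM in the others, a ratio of 0.847. Osbpl10 had an effective length of 2614.2 bases in Young 18C and 1823.1 to 1926.1 in the others, a ratio of 0.87, and that library held 3 counts of the gene.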

How the results depend on the processing

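Of 149 values of the members' fold changes under the alternatives, 145 moved by less than 1 SD between libraries, 4 moved by more (Osbpl1a with the effective-length offset and with TPM, Osbpl9 with the offset, Osbpl10 with TPM) and 0 called values changed sign. With a TPM pseudocount of 1 in place of 0.1, the differences of Osbp (1.21) and Osbpl10 (-0.15) moved by more than 1 SD and those of the other 8 members by less. Osbp kept its call in each alternative that used all 7 libraries. The number of genes called, 141, was 1399 with DESeq2, 213 with the effective-length offset and 286 with no filter, and 1 to 159 with 1 library left out. The number of called partner genes, 2 (both lower in Old), was 13 with DESeq2 (6 higher, 7 lower) and 6 with the effective-length offset (2 higher, 4 lower), and 0 to 2 with 1 library left out. Without 14C, 18C and 2posI 1 gene was called each time, without 29C 2, without 23C 14 and without 4posI 85. The fits with a library left out have fewer samples; the cause of the other shifts was not tested. Osbpl10 was dropped by filterByExpr and had no adjusted p in DESeq2. Few reads limit Osbp2, Osbpl5 and Osbpl10. No paired analysis was possible because the labels give the animals codes that the ages do not share.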
